A study of Mus musculus with 111 samples.

Results

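The small RNA of mouse testis was compared between 2 control diets. The comparison held 10 of the 111 libraries of the study, those whose table columns were named for testis and for either diet: 5 libraries of the high-fat control diet, in which 7.2% of the calories came from fat, and 5 libraries of the control diet, with 18% protein. The study fed its mice for 6 months, and sequenced 6 tissues with OTTR-seq, in which a reverse transcriptase adds both adapters while it copies an RNA. The remaining testis libraries, 5 of a low-protein diet with 10% protein and 4 of a high-fat diet in which fat gave 60% of calories, entered the fits for their spread and are described only where they place the 2 control diets. The labels give no strain or age for these libraries and do not say that each came from its own animal, so p-values measure the spread between libraries, part of which can be technical. Both diets serve as the reference of a test diet, and the question was how reads of cytosolic tRNA and reads of piRNA precursors differ between them, and how far that depends on the scaling.

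Transfer RNAs carry amino acids to the ribosome and read codons through their anticodon. tRNAs with the same anticodon form an isoacceptor, and cells also cut tRNAs into fragments. The column names end in a code whose meaning is not given, so whether fragments were counted here is not known. Mitochondria make a separate set of tRNAs from both strands of their own genome. piRNAs are short guides of the PIWI proteins. In the testis they silence transposons and, from the pachytene stage of meiosis on, come from long precursor transcripts of a limited number of clusters. Small nucleolar RNAs (snoRNAs) guide the modification of ribosomal RNA, and small nuclear RNAs (snRNAs) form the core of the spliceosome. In a bulk sample, fewer cells of a type and less RNA per cell cannot be told apart.

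The table names cytosolic tRNAs and piRNA precursors without coordinates or sequences. The mitochondrial tRNAs could be placed on the mitochondrial chromosome of GRCm38 with the GENCODE M21 annotation. Of those tested, 2 with large fitted differences and 2 that went least with the rest of their class are shown 5′ to 3′ as transcribed, with the anticodon in capitals. The genes of Lys and Asp lie on the plus strand (chrM:7700-7764 and chrM:6942-7011), and those of Glu and Ser on the minus strand (chrM:14071-14139 and chrM:6870-6938).
mt-tRNA-Lys-TTT-1: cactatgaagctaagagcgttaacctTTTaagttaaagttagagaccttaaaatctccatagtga
mt-tRNA-Asp-GTC-1: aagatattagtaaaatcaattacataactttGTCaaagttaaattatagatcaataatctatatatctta
mt-tRNA-Glu-TTC-1: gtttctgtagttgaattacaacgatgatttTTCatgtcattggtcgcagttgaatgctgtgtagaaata
mt-tRNA-Ser-TGA-1: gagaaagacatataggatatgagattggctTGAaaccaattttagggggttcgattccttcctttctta
The genes of Asp and Ser are neighbours on opposite strands. The G and C content was 33.9%, 17.1%, 34.8% and 37.7% in the order printed.

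The libraries differed in depth as well as in diet. The high-fat control libraries held 19530 to 43306 reads and the control libraries 117899 to 671134, over 1042 features kept after duplicate names were removed. These ranges do not overlap, so depth and diet cannot be told apart. The high-fat control libraries detected 513 to 628 features and the control libraries 633 to 799. The columns of each diet also carry consecutive numbers, 58 to 62 in the high-fat control and 48 to 52 in the control, whose meaning is not given, so their order and diet cannot be told apart either. All 10 libraries had the piRNA precursors of testis, at 0.417% to 15.4% of reads, while the libraries of the other tissues had a median of 0.0375% and a maximum of 1.62%. The 3 entries taken as marks of the cauda epididymis (Gm26461, Gm24245 and Gm22220) summed to 2933 to 8449 RPM (reads scaled to a common library size) in the high-fat control and 245.9 to 4003 RPM in the control, against a median of 102600 RPM in cauda itself. The 4 taken as marks of sperm (Gm23935, Gm24187, Gm24270 and tRNA-SeC-TCA-1) summed to 7197 to 15750 RPM in the high-fat control and 1896 to 8287 RPM in the control, against a median of 167700 RPM in sperm. Gm24245 and Gm22220 did not pass the filter on low counts. Of the 5 entries tested with TMM factors, Gm26461 alone passed, at a log2 fold change of 1.31 (edgeR adjusted p = 0.0338), and it did not pass without control replicates 1, 2 or 5 or high-fat control replicates 4 or 5 (edgeR adjusted p = 0.0504 to 0.124). The part of depth and of these entries in the results was not tested.

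Cytosolic tRNA made up a smaller share of the reads in the high-fat control testes than in most control testes, and piRNA precursors made up a larger share than in any control testis. Cytosolic tRNA took 36.9%, 30.4%, 32.98%, 30.5% and 34.9% of reads in high-fat control replicates 1 to 5, against 72.1%, 73.0%, 34.1%, 56.2% and 78.65% in control replicates 1 to 5. The high-fat control libraries lay close together, while control replicate 3 lay among them and the other control libraries lay above. piRNA precursors took 6.83%, 6.98%, 15.4%, 7.70% and 5.45% in high-fat control replicates 1 to 5, against 1.09%, 0.417%, 4.26%, 2.45% and 0.639% in control replicates 1 to 5. The groups did not overlap, and the highest control share was again that of replicate 3.

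**Figure D1:**
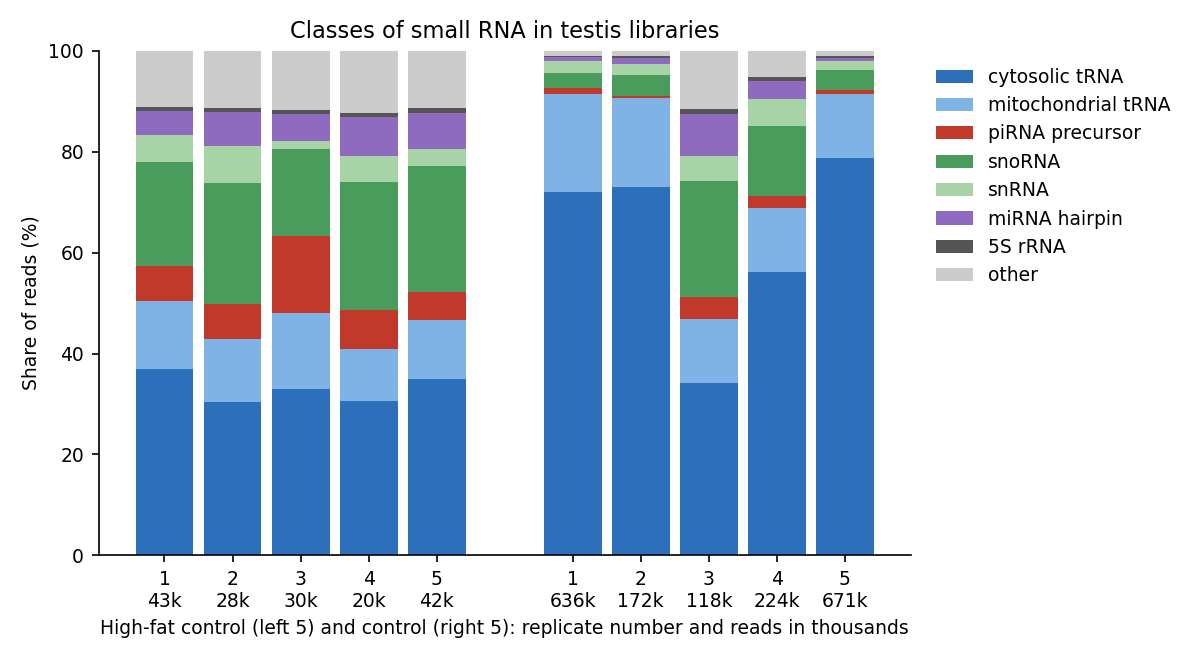
Share of reads (%) of each class of small RNA in the 5 high-fat control and 5 control testis libraries, as stacked bars with the reads of each library under its bar. Cytosolic tRNA fills 30.4% to 36.9% of the high-fat control bars and 34.1% to 78.65% of the control bars, with control replicate 3 nearest to the high-fat control.

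The mean tRNA share was 33.1% ± 2.80 in the high-fat control and 62.8% ± 18.1 in the control (SD, n = 5 each), a difference of −29.67 percentage points (two-sided exact permutation p = 0.0238, 0.0635 adjusted over 8 classes). The mean piRNA precursor share was 8.46% ± 3.94 in the high-fat control and 1.77% ± 1.60 in the control, a difference of 6.69 points (exact p = 0.00794, the smallest that 252 arrangements allow, 0.0635 adjusted). Neither difference passed 0.05 after adjustment over the classes. Without control replicate 3 they were −36.85 and 7.315 points, with an adjusted exact p of 0.0127 for both. With any other library left out the adjusted exact p was 0.0635 to 0.0952, and neither passed. snoRNAs averaged 22.4% ± 3.50 in the high-fat control and 9.63% ± 8.72 in the control (exact permutation p = 0.0238, 0.0635 adjusted). Mitochondrial tRNA averaged 12.7% ± 1.74 in the high-fat control and 15.1% ± 3.24 in the control (exact permutation p = 0.198), a difference within the spread between libraries.

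The exchange can be put as a ratio of the 2 classes, which no scaling alters. The log2 ratio of piRNA precursor to cytosolic tRNA reads was −2.43, −2.12, −1.10, −1.99 and −2.68 in high-fat control replicates 1 to 5, against −6.05, −7.45, −3.00, −4.52 and −6.94 in control replicates 1 to 5. Every high-fat control library lay above every control library. The means were −2.06 ± 0.60 in the high-fat control and −5.59 ± 1.83 in the control (SD, n = 5 each), a difference of 3.53 on the log2 scale (exact permutation p = 0.00794, 0.0463 adjusted over 7 ratios to tRNA). Leaving out any library kept this difference between 3.06 and 4.18, with an exact p of 0.00794 to 0.0159 before adjustment. Adjusted over the 7 ratios, the exact p stayed under 0.05 without control replicate 3 (0.00926) or control replicate 4 (0.0463), and was 0.0556 to 0.0926 in the other 8 cases.

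Other classes also stood higher against tRNA. The difference of the log2 ratio to tRNA was 2.54 for snoRNAs, 2.63 for microRNA hairpins, 3.21 for RNAs outside these classes (among them 7SK and mitochondrial ribosomal RNA), 1.46 for 5S ribosomal RNA and 0.63 for mitochondrial tRNA, each with an adjusted exact p of 0.0463. It was 1.35 for snRNAs, with an adjusted exact permutation p of 0.0635. The most read hairpin, Gm47295 (chr12:69159518-69159596), overlaps Rn7s1 (chr12:69159295-69159594), the most read RNA outside these classes. Their means were 41380 and 47440 RPM in the high-fat control and 20140 and 21740 RPM in the control. The ratios of hairpins and of RNAs outside these classes thus rest in part on 1 locus, and are not separate. Taken against reads other than cytosolic and mitochondrial tRNA, the difference of the piRNA precursors was smaller. They made up 13.8%, 12.2%, 29.5%, 13.03% and 10.2% of those reads in high-fat control replicates 1 to 5, against 12.8%, 4.45%, 8.02%, 7.83% and 7.51% in control replicates 1 to 5. The groups overlapped there through control replicate 1. The log2 ratio of piRNA precursors to the rest of those reads differed by 1.05 (exact permutation p = 0.0238), and that to snoRNAs by 0.99 (exact permutation p = 0.0635, groups overlapping). The ratio to mitochondrial tRNA differed by 2.90 (exact permutation p = 0.00794) with no overlap. These 3 ratios were chosen after the values had been seen.

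**Figure D2:**
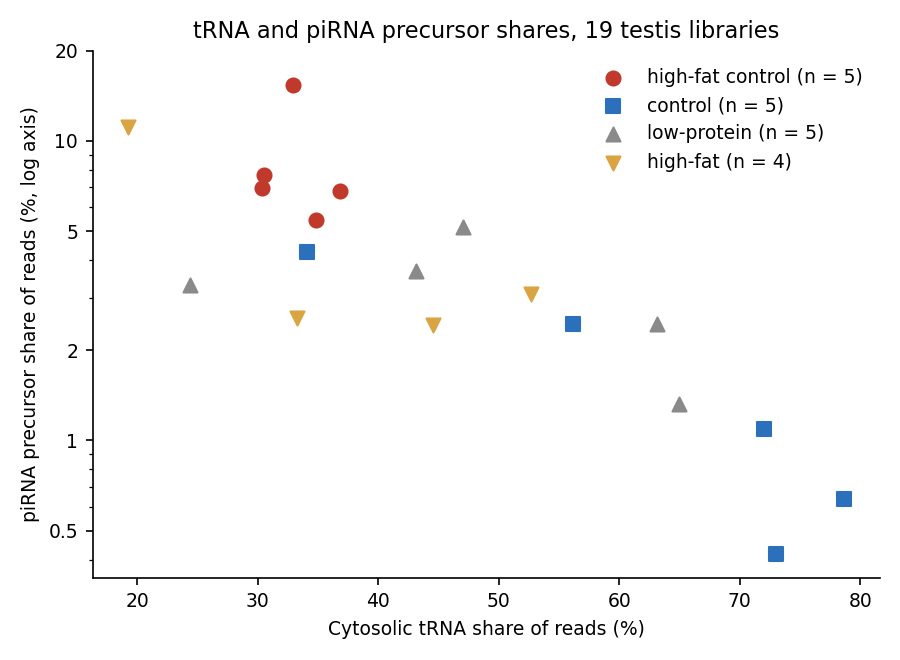
Cytosolic tRNA share (x axis, % of reads) against piRNA precursor share (y axis, % of reads, log scale) in all 19 testis libraries, 1 point each, by diet. The high-fat control points lie at upper left, at 5.45% piRNA or more, and the control points run to lower right, with control replicate 3 at 34.1% tRNA and 4.26% piRNA.

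The tRNA share of the control libraries ran over a wider range than in the other diets, from 34.1% to 78.65%. Low-protein testes held 24.4% to 64.9% tRNA and 1.32% to 5.14% piRNA precursors. High-fat testes held 19.3% to 52.7% tRNA and 2.43% to 11.2% piRNA precursors. All low-protein libraries thus lay below every high-fat control library in piRNA share, and 1 of the 4 high-fat libraries, at 11.2%, reached the range of the high-fat control, the median of that diet being 2.82%.

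Per feature, the edgeR fit with TMM factors tested 447 features, and the high-fat control was higher in 17% and lower in 29.8% of them at an adjusted p under 0.05. Cytosolic tRNAs fell: of 213 in the table, 108 passed the filter on low counts, and 97 of these were lower and 0 higher in the high-fat control, with a median log2 fold change of −3.30, or −3.27 with the 1 tRNA at 0 reads in a group set to its bound. piRNA precursors rose: of 276, 141 passed the filter, and 61 were higher and 0 lower, at a median of 1.24, beside a median of 0.11 over all tested features. Features that passed the filter through the group where they are high were bound to differ, so these shares do not describe all members of a class. All 141 fitted fold changes of piRNA precursors lay above 0, from 0.07 to 2.90. Without control replicates 1, 2 or 5 the piRNA precursors called were 39, 27 and 28 of 133. Without high-fat control replicate 3 they were 27 of 129. Over all features the calls numbered 209 of 447. Without control replicates 1, 2 or 5 they numbered 158 of 417, 141 of 417 and 138 of 416, and without high-fat control replicate 3 164 of 435.

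How many of either class were called depended on what was held equal between the diets. With total counts the median over all tested features moved to 1.11, and 174 features were higher (38.9%) and 67 lower (15.0%). Under that scaling 60 of 108 cytosolic tRNAs were lower and 3 higher, and 116 of 141 piRNA precursors were higher. With reads scaled to mitochondrial tRNA, the median was 1.29, 38.2% of 437 features were higher and 8.47% lower, with 33 of 101 cytosolic tRNAs lower and 3 higher, and 111 of 140 piRNA precursors higher. With RLE, TMMwsp and upper-quartile factors, 95, 96 and 93 of 108 tRNAs were lower and 71, 54 and 65 of 141 piRNA precursors were higher, among 21.5%, 13.6% and 18.1% of features higher and 29.1%, 31.1% and 26.2% lower. Scaled to snoRNA and snRNA reads, 99 of 112 tRNAs were lower and 45 of 108 piRNA precursors higher, among 16.4% of features higher and 35.7% lower. DESeq2 in place of edgeR called 96 of 108 tRNAs lower and 82 of 141 piRNA precursors higher, among 24.4% of features higher and 29.3% lower.

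Holding either class itself equal moved most of the difference to the other side, which follows from the scaling itself. Scaled to cytosolic tRNA reads, 96 of 160 piRNA precursors were higher, among 28.7% of 474 features, while 6 cytosolic tRNAs were higher and 14 lower of 102, among 2.95% of features lower. Scaled to piRNA precursor reads, 120 of 121 cytosolic tRNAs were lower, among 55.5% of 454 features, and 0 of 113 piRNA precursors were called in either direction by edgeR, with 1 at an unadjusted p under 0.05. Of all calls, 36.4% were higher in the high-fat control with TMM factors, 72.2% with total counts, 81.9% scaled to mitochondrial tRNA, 90.7% scaled to cytosolic tRNA and 0 scaled to piRNA precursors. The order of the class medians was the same in all 9 scalings, with cytosolic tRNA lowest, then mitochondrial tRNA, snRNA, snoRNA and piRNA precursors highest. A scaling moves all features of a library together, so this order was nearly bound to hold. The scalings are therefore no separate support for it. For the same reason the medians of piRNA precursors and cytosolic tRNA stayed far apart in each. They were 2.26 and −1.55 with total counts, 2.76 and −0.49 scaled to tRNA, and 0.01 and −4.97 scaled to piRNA precursors.

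**Figure D3:**
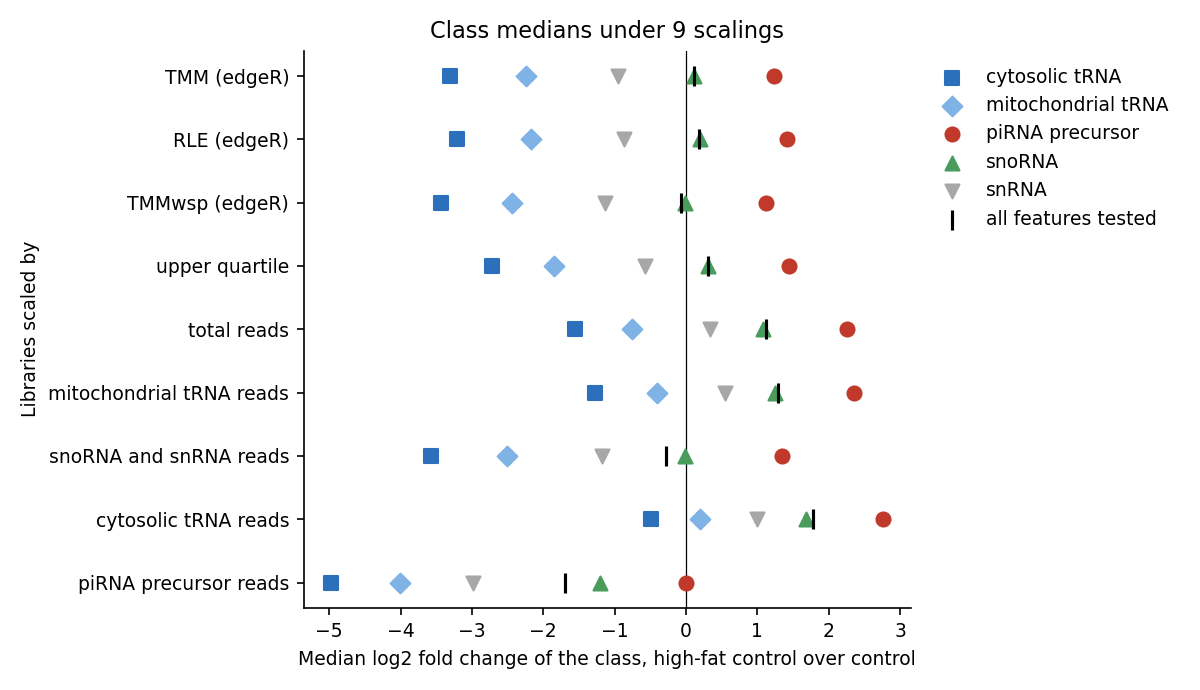
Median log2 fold change (high-fat control over control, x axis) of 5 classes and of all tested features under 9 scalings, 1 line of points per scaling. The points shift together from scaling to scaling, and cytosolic tRNA stays lowest and piRNA precursors stay highest.

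Among cytosolic tRNAs the difference was broad. With TMM factors all tested tRNAs were lower for arginine (13), leucine (14), serine (10), valine (9), glycine (7), glutamine (6), threonine (6) and lysine (4), and for the single initiator methionine tRNA, which starts translation. Glutamate had 0 of 3 called, with a median log2 fold change of −0.34, and proline had 1 of 4. With total counts 2 of the 3 glutamate tRNAs were higher, at a median of 1.05, while all 9 valine tRNAs remained lower, at a median of −2.96. Scaled to cytosolic tRNA reads the glutamate median was 1.78, again with 2 of 3 higher, and the valine median was −1.88, with 5 of 9 lower. The 8 cysteine tRNAs, of which 7 were lower with TMM factors, included 0 called by edgeR with total counts. The most read tRNA was tRNA-Asp-GTC-1, which decodes aspartate. It had 107800, 78700, 45080, 59140 and 68180 RPM in high-fat control replicates 1 to 5, against 173800, 162900, 86870, 175600 and 197400 RPM in control replicates 1 to 5. The groups overlapped through high-fat control replicate 1 and control replicate 3. The fitted log2 fold change was −2.66 ± 0.58 (SE, edgeR adjusted p = 0.00114), but −0.25 scaled to tRNA reads (edgeR adjusted p = 0.437) and −0.92 scaled to mitochondrial tRNA reads (edgeR adjusted p = 0.0656).

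tRNA-Gln-CTG-2, a glutamine tRNA, had 24450, 17990, 12170, 13880 and 7669 RPM in high-fat control replicates 1 to 5, against 76010, 78140, 18520, 47270 and 77580 RPM in control replicates 1 to 5. Control replicate 3 alone lay within the high-fat control range, and the log2 fold change was −3.60 ± 0.72 (edgeR adjusted p = 0.000904). tRNA-Glu-CTC-1 went otherwise, with 58100, 45570, 71940, 72040 and 84480 RPM in high-fat control replicates 1 to 5, against 14410, 29490, 82030, 84620 and 29320 RPM in control replicates 1 to 5. Control replicates 3 and 4 lay at the high end of the high-fat control range, and the other control libraries lay below it. Its log2 fold change was −0.58 ± 0.44 with TMM factors (edgeR adjusted p = 0.275), 0.47 with total counts and 1.04 scaled to tRNA reads, none of which passed the test.

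Levels as RPM and fitted fold changes can point in opposite directions, because TMM factors rescale the libraries by features of middling difference. tRNA-Glu-TTC-1 had 26510, 17240, 32020, 24220 and 31950 RPM in high-fat control replicates 1 to 5, against 12740, 11180, 15350, 12120 and 12500 RPM in control replicates 1 to 5. All high-fat control values lay above all control values, while the fitted log2 fold change was −0.34 (edgeR adjusted p = 0.543). Of the 108 tested cytosolic tRNAs, it was the 1 whose RPM did not overlap and was higher, and 7 did not overlap and were lower. Over all tested features 15.7% did not overlap and were higher and 2.01% did not overlap and were lower. Among piRNA precursors 53 of 141 did not overlap and were higher, and 0 were lower.

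The largest fitted differences were of tRNAs with few reads, whose precision is set by the depth of the high-fat control libraries. tRNA-Val-CAC-1 had 0, 0, 0, 51.2 and 0 RPM in high-fat control replicates 1 to 5, against 435, 343, 59.4, 71.5 and 414 RPM in control replicates 1 to 5. The groups did not overlap, though control replicates 3 and 4 lay close to the single high-fat control value. It rested on 1 read in the high-fat control and 637 in the control. With the reads of each group pooled it was 57.02 times more frequent in the control (exact 95% interval 10.2 to 2256, counting error only). Its mean over libraries was 10.24 RPM in the high-fat control and 264.6 RPM in the control. tRNA-Ile-TAT-2 had 0 reads in the high-fat control and 151 in the control, which makes it at least 4.51-fold lower in the high-fat control when a count of 0 is taken as 3 reads over the group. tRNA-Asn-GTT-1 had 2 reads in the high-fat control and 347 in the control. In pooled reads it was 15.5 times more frequent in the control (exact 95% interval 4.27 to 129). Together with tRNA-Ala-AGC-5, tRNA-Thr-AGT-1, tRNA-Val-AAC-3, tRNA-Met-CAT-1 and tRNA-Ala-AGC-4, at fitted log2 fold changes of −5.35 to −5.04, these were the 8 lowest of the called tRNAs. tRNA-Thr-AGT-1 rested on 4 reads in the high-fat control and 737 in the control.

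Within the tRNA pool, a set of isoacceptors exchanged shares. Sums over each isoacceptor, scaled to cytosolic tRNA reads, gave 43 tested isoacceptors, of which 2 were higher and 5 lower, in a fit where 33.4% of all features were higher and 1.19% lower. Those higher were Glu-TTC, by 1.79 ± 0.46, and the selenocysteine tRNA, which inserts selenocysteine at UGA codons, by 1.96 ± 0.58 (log2 fold change ± SE, edgeR adjusted p = 0.0300 for both). Those lower were Val-CAC at −1.99 ± 0.59, Val-AAC at −1.83 ± 0.64, Thr-AGT at −1.81 ± 0.69, Gln-TTG at −1.80 ± 0.58 and Asn-GTT at −1.58 ± 0.54 (edgeR adjusted p = 0.0300 to 0.0464). The shares of tRNA reads overlapped between the groups for all 5 lower ones. Control replicate 3 lay within the high-fat control range for each. Control replicate 4 also did so for Val-CAC, Val-AAC and Gln-TTG. This scaling of isoacceptors was chosen after the data had been seen. The selenocysteine tRNA is also among the marks of sperm given above. With TMM factors 0 of 44 isoacceptors were higher and 41 lower, among 23.6% of features lower in that fit.

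Glu-TTC took 13.8%, 9.92%, 18.0%, 14.2% and 16.95% of tRNA reads in high-fat control replicates 1 to 5, against 3.22%, 2.66%, 8.36%, 4.16% and 2.63% in control replicates 1 to 5. The groups did not overlap. Val-CAC took 0.534%, 0.623%, 1.61%, 0.655% and 0.675% in high-fat control replicates 1 to 5, against 5.38%, 5.13%, 0.952%, 0.798% and 3.99% in control replicates 1 to 5. Control replicates 3 and 4 lay with the high-fat control libraries, and replicates 1, 2 and 5 stood far above. Glu-CTC showed the same division of the control libraries in the other direction, with 15.8%, 15.1%, 21.8%, 23.7% and 24.3% in high-fat control replicates 1 to 5, against 2.003%, 4.04%, 24.1%, 15.1% and 3.73% in control replicates 1 to 5. Asp-GTC, the most read isoacceptor, took 25.6% ± 7.40 of tRNA reads in the high-fat control and 30.3% ± 3.85 in the control (SD, n = 5 each).

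**Figure D4:**
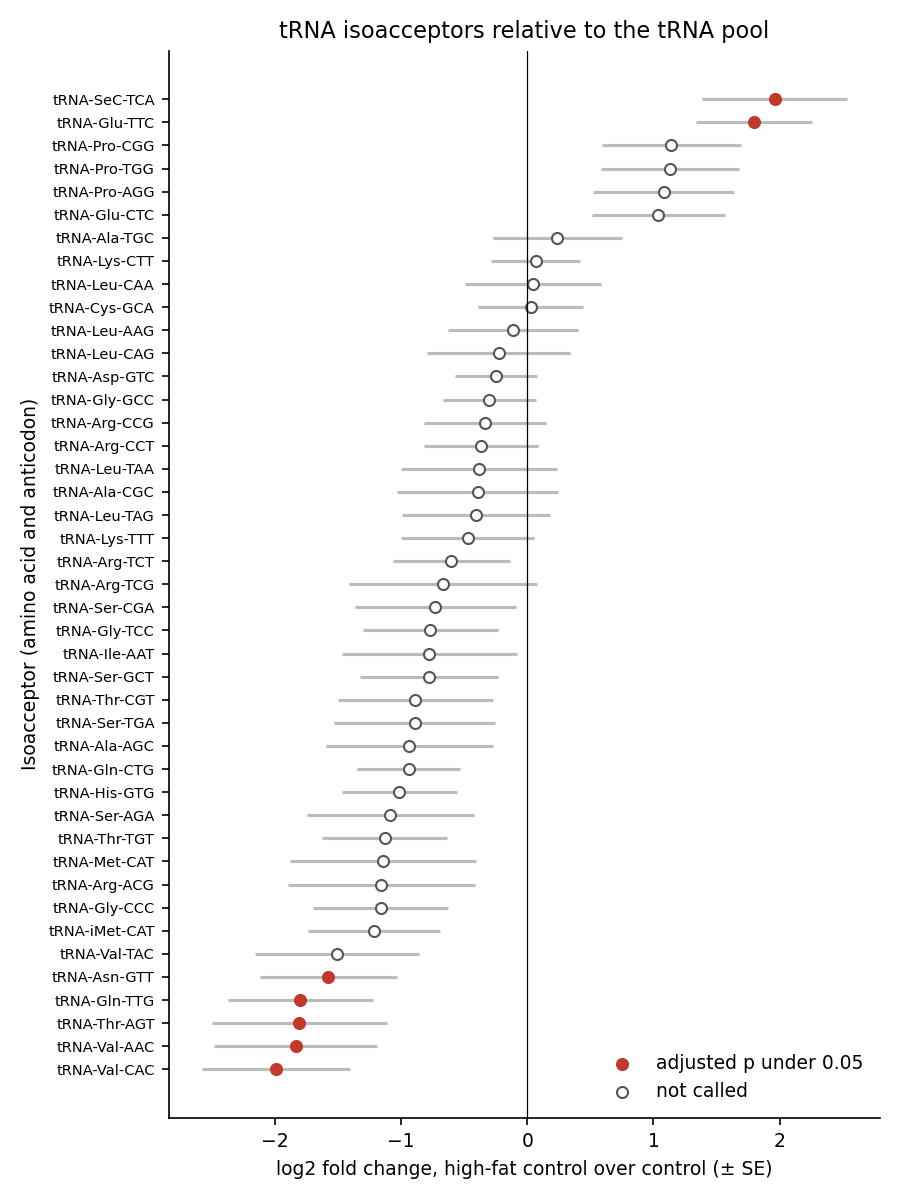
log2 fold change (high-fat control over control, x axis) of 43 tRNA isoacceptors within the cytosolic tRNA reads, with bars of 1 standard error and filled points where the edgeR adjusted p is under 0.05. Glu-TTC and selenocysteine stand highest among the filled points, at 1.79 and 1.96, and Val-CAC lowest at −1.99.

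Per feature, the piRNA precursors differed in the opposite direction from the tRNAs. The table names 147 of them by chromosome band and 129 by the gene that hosts them. Over all tested features 17% were higher with TMM factors. Of the band-named precursors 113 were tested, from 81 loci, and 59 of them were higher, from 50 loci. Their median log2 fold change was 1.29. Of the host-named precursors 28 were tested, from 16 loci, and 2 were higher, at a median of 1.07. The 2 were pi-Strbp.1 and pi-Strbp.2, transcripts of 1 locus whose reads may be shared, at 1.60 (edgeR adjusted p = 0.0117) and 1.55 (edgeR adjusted p = 0.0194). With total counts, 96 of 113 band-named and 20 of 28 host-named precursors were higher, among 38.9% of all features. Host-named precursors made up 10.9% ± 2.27 of piRNA precursor reads in the high-fat control and 14.1% ± 3.61 in the control (exact permutation p = 0.159). Of the entries as deposited, 188 of 204 named by band and 16 of 156 named by host gene held even counts only. The part of this in the calls by naming was not tested.

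The most read precursor, 2-qE1-35981.2, had 1524, 1781, 5589, 2151 and 1294 RPM in high-fat control replicates 1 to 5, against 339.5, 104.6, 950, 687.7 and 134.1 RPM in control replicates 1 to 5. The groups did not overlap, and high-fat control replicate 3 stood well above the rest. Its log2 fold change was 1.46 ± 0.45 (edgeR adjusted p = 0.0117), but 1.09 without that library (edgeR adjusted p = 0.0527) and 0.09 scaled to piRNA precursor reads (edgeR adjusted p = 0.848). Precursor 9-qC-31469.1 had 1293, 2850, 3551, 2355 and 1726 RPM in high-fat control replicates 1 to 5, against 273.5, 58.1, 1137, 607.3 and 137.1 RPM in control replicates 1 to 5. The lowest high-fat control library lay just above control replicate 3, and the log2 fold change was 1.51 ± 0.46 (edgeR adjusted p = 0.0106). Precursor 7-qD2-24830.3 had 2171, 2066, 4471, 1946 and 1438 RPM in high-fat control replicates 1 to 5, against 232.6, 69.7, 1018, 580.5 and 107.3 RPM in control replicates 1 to 5. Here too the groups did not overlap, with a log2 fold change of 1.70 ± 0.52 (edgeR adjusted p = 0.0117).

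Larger fold changes belonged to precursors with few reads. Precursor 9-qF4-150.2 had 92.4, 285, 197, 205 and 47.9 RPM in high-fat control replicates 1 to 5, against 0, 0, 33.9, 26.8 and 2.98 RPM in control replicates 1 to 5, with a log2 fold change of 2.90 ± 0.81 (edgeR adjusted p = 0.00657). 7-qF3-246.1 differed by 2.89 ± 1.02 (edgeR adjusted p = 0.0248), and by 2.55 without control replicate 5 (edgeR adjusted p = 0.0552). 6-qD1-2831.1 had 230.9, 570.1, 1052, 204.8 and 143.8 RPM in high-fat control replicates 1 to 5, against 34.6, 23.2, 50.9, 80.4 and 11.9 RPM in control replicates 1 to 5. Its groups lay apart, with a log2 fold change of 2.26 ± 0.53 (edgeR adjusted p = 0.00215). The other precursors among the 8 highest were 4-qD3-2082.3 at 2.29, 14-qA3-284.1 at 2.22, 8-qC5-8200.1 at 2.15, 8-qE1-3748.1 at 1.998 and 6-qD1-2831.2 at 1.98 on the log2 scale, all called. 8-qE1-3748.1 differed by 1.54 without high-fat control replicate 3 (edgeR adjusted p = 0.0542). Of 360 piRNA precursor entries as deposited, 204 held even counts only, as did 13 of 244 snoRNA entries, and the counting rule that gave this is not given. With such entries halved, 60 of 119 piRNA precursors were higher, among 78 of 422 features. The piRNA precursor share of reads then averaged 4.934% in the high-fat control and 1.017% in the control.

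**Figure D5:**
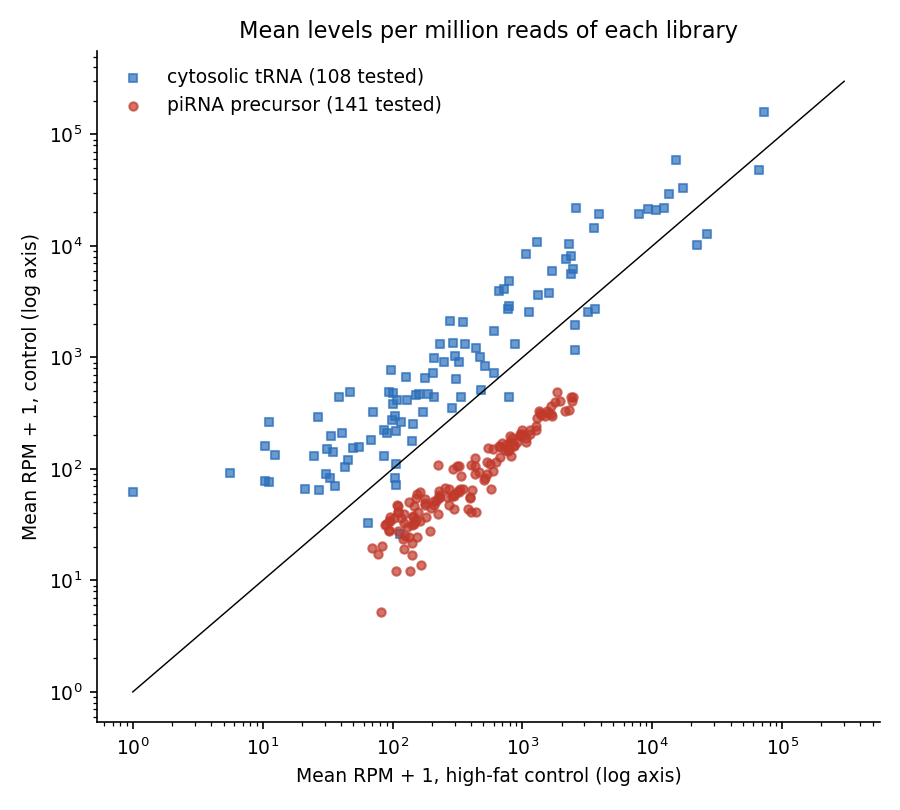
Mean RPM + 1 in the high-fat control testes (x axis, log scale) against the control testes (y axis, log scale) for 108 cytosolic tRNAs and 141 piRNA precursors, with the line of equal levels. piRNA precursors lie on the high-fat control side of the line, and most tRNAs lie on the control side.

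Mitochondrial tRNAs fell with TMM factors, and did so unevenly. Of 21 tested, 17 were lower and 0 higher. Their median log2 fold change was −2.24, but 0.20 scaled to cytosolic tRNA reads. On the plus strand 11 of 13 were lower and on the minus strand 6 of 8. mt-tRNA-Lys-TTT-1 had 3348, 2458, 4340, 1536 and 2253 RPM in high-fat control replicates 1 to 5, against 21890, 17750, 3435, 4264 and 12360 RPM in control replicates 1 to 5. Control replicates 3 and 4 again lay within the high-fat control range. Its log2 fold change was −3.79 ± 0.72 (edgeR adjusted p = 0.000874), and that of mt-tRNA-Asp-GTC-1 was −4.05 ± 0.86 (edgeR adjusted p = 0.00114). mt-tRNA-Ile-GAT-1 came next at −3.59 ± 0.91 (edgeR adjusted p = 0.00359).

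mt-tRNA-His-GTG-1 (chrM:11546-11612, plus strand) had 9306, 5594, 6970, 3687 and 5656 RPM in high-fat control replicates 1 to 5, against 17820, 14560, 9483, 15960 and 13030 RPM in control replicates 1 to 5. The groups did not overlap, with a log2 fold change of −2.64 ± 0.56 (edgeR adjusted p = 0.00101). mt-tRNA-Ser-TGA-1 lay the other way, with 6858, 4240, 2860, 5940 and 7645 RPM in high-fat control replicates 1 to 5, against 488.8, 453.1, 4903, 2291 and 402.3 RPM in control replicates 1 to 5. Control replicate 3 lay within the high-fat control range, and the log2 fold change was 0.97 ± 0.47 (edgeR adjusted p = 0.089). It passed the test with total counts, at 1.70 (edgeR adjusted p = 0.0251).

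Scaled to their own class, 2 of 20 tested mitochondrial tRNAs were higher and 4 lower. Ser-TGA-1 differed by 1.80 (edgeR adjusted p = 0.0314) and Glu-TTC-1 by 1.12 (edgeR adjusted p = 0.0418), while Asp, Lys, Phe and Arg were lower by −2.02, −1.79, −1.52 and −1.44. The Arg entry is uncertain, since it held 468611 reads over all libraries of the study and its second name 25789. mt-tRNA-Val-TAC-1, the most read of the class, took 38.3% ± 4.26 of mitochondrial tRNA reads in the high-fat control and 38.4% ± 3.63 in the control (SD, n = 5 each). mt-tRNA-Met-CAT-1, the next most read, took 22.3% ± 4.94 in the high-fat control and 12.7% ± 4.52 in the control, with overlapping groups.

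The remaining classes were mixed and followed the scaling. Of 121 tested snoRNAs 11 were higher and 9 lower with TMM factors, against 17% and 29.8% of all features. With total counts 41 were higher and 0 lower, against 38.9% and 15.0% of all features. Scaled to piRNA precursor reads 0 of 123 snoRNAs were higher and 54 lower, against 0 and 55.5% of all features. Left-out libraries also moved the snoRNA counts, with 3, 3 and 4 higher without control replicates 1, 2 and 5 and 26 higher without control replicate 3. Of 30 tested snRNAs 0 were higher and 10 lower with TMM factors, against 17% and 29.8% of all features. With total counts 0 snRNAs were called by edgeR. The snRNAs lower numbered 0 without control replicate 5 or high-fat control replicate 2, and 2 to 11 with each other library left out. Snord83b, a box C/D snoRNA, rose by 2.04 ± 0.57 (log2 fold change, edgeR adjusted p = 0.00619), with 5357, 2387, 2762, 1895 and 2157 RPM in high-fat control replicates 1 to 5, against 84.9, 151, 687, 723 and 191 RPM in control replicates 1 to 5. Its groups did not overlap, and high-fat control replicate 1 was the highest. Gm26109, annotated as a snoRNA, fell by 3.20 on the log2 scale (edgeR adjusted p = 0.00473), but differed by −1.53 with total counts (edgeR adjusted p = 0.0828). Snora17 and Gm22009 followed Snord83b at 1.97 and 1.94, and Gm22193 and Gm22680 followed Gm26109 at −2.92 and −2.70. The lowest snRNAs were Gm23092, Gm25127 and Gm22823 at −2.38, −2.23 and −2.04. None of the 3 snRNAs passed the test with total counts, and each lost its call in at least 4 of the 10 fits that left out 1 library. The median of the snRNAs was −0.95 with TMM factors and 0.34 with total counts. Gm22680 also lost its call in 4 of those fits, at −2.62 to −2.07. Of 10 tested microRNA hairpins 0 were called by edgeR with TMM factors, where 1 had an unadjusted p under 0.05, and 1 was called by DESeq2.

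Of 15 tested RNAs outside these classes 4 were higher with TMM factors, against 17% of all features. The count was 0 without control replicate 1, 2 or 5, 2 without high-fat control replicate 3, and 8 without control replicate 3 or with total counts. Rn7sk, the 7SK RNA that holds the elongation factor P-TEFb inactive, had 2979, 3064, 2663, 4250 and 2540 RPM in high-fat control replicates 1 to 5, against 221.6, 162.7, 2044, 1027 and 222 RPM in control replicates 1 to 5. The groups did not overlap, and the log2 fold change was 1.29 ± 0.41 (edgeR adjusted p = 0.0137). Without control replicates 1, 2 or 5 it was 1.10, 1.05 and 1.14, with edgeR adjusted p of 0.0579, 0.064 and 0.0607. mt-Rnr2, the large mitochondrial ribosomal RNA, flanks mt-tRNA-Val-TAC-1 (chrM:1025-1093) together with mt-Rnr1, the small one. It differed by 1.19 ± 0.49 (edgeR adjusted p = 0.0471) and mt-Rnr1 by 1.05 ± 0.45 (edgeR adjusted p = 0.0558), while the tRNA between them fell by 1.73 on the log2 scale (edgeR adjusted p = 0.00657) with TMM factors and differed by −0.25 with total counts (edgeR adjusted p = 0.521). mt-Rnr2 lost its call without control replicates 1, 2, 4 or 5 or high-fat control replicates 1 or 3, with an edgeR adjusted p of 0.0579 to 0.152.

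The lower tRNA share was not shared by all tissues. In liver, cytosolic tRNA took 39.95% ± 3.34 of reads in the high-fat control and 63.02% ± 9.09 in the control (SD, n = 4 each, exact permutation p = 0.0286), where the high-fat control libraries were also shallower, with a median of 12002.5 reads against 294411.5 in the control. In caput epididymis it took 62.5% ± 6.74 in the high-fat control and 40.5% ± 9.33 in the control (n = 5 each, exact permutation p = 0.0159). Adjusted over 6 tissues, the exact p was 0.0571 for testis, liver and caput alike. In heart, cauda and sperm the exact permutation p was 0.0873, 0.246 and 0.198. A fit over the 6 tissues tested whether the testis difference departed from the mean of the other tissues for 406 features. It called 47 lower (11.6%) and 5 higher (1.23%), and 35 of the 93 cytosolic tRNAs in it were lower. With total counts that test called 5 features in all, and with RLE factors 25. Of the cytosolic tRNAs, 4 were lower and 0 higher there with total counts, and 14 lower and 5 higher with RLE factors. Taken tissue by tissue with TMM factors, 77 of the 93 cytosolic tRNAs were lower in testis, 65 in liver and 51 in heart. Of all 406 features 98, 79 and 80 were lower there. In heart 3 tRNAs were higher, in sperm 3 were lower, and in caput and cauda 0 were called. The tRNA medians were −2.69 in testis, −3.00 in liver, −1.46 in heart, 1.18 in caput, −0.15 in cauda and −0.62 in sperm. In the test of departure, 0 of the 89 piRNA precursors were called by edgeR or had an unadjusted p under 0.05. But 86 had a standard error above 10 on the log2 scale, so that test had no precision for them. As a share of reads, piRNA precursors were scarce elsewhere. In cauda they took 0.434% ± 0.0973 in the high-fat control and 0.323% ± 0.0385 in the control (n = 5 each, exact permutation p = 0.0476). In heart they took 0.00999% ± 0.0142 in the high-fat control and 0.000781% ± 0.000529 in the control (n = 5 each, exact permutation p = 0.00794), and in sperm 0.805% ± 0.502 in the high-fat control and 0.382% ± 0.177 in the control (exact permutation p = 0.103). These piRNA p-values are not adjusted over tissues.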

How the data were processed

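Small RNA libraries were made by OTTR-seq after treatment with polynucleotide kinase and gel size selection, per the labels' protocols. The authors deposited a table of read counts per named small RNA, whole numbers with no normalization. cutadapt, DESeq2 and the build mm10 were used, per the submitters' processing notes. The aligner and the way reads were divided among copies are not given in those notes or the labels, so values of single cytosolic tRNAs, which have near-identical copies, are uncertain, as are those of piRNA transcripts of 1 locus. Strand use is also not given.

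Of 1268 entries 1042 features were kept: second names of 22 mitochondrial tRNAs, 55 of 56 5S ribosomal RNA entries and 149 entries that differed by under 5.0% from another were dropped. This reduction followed inspection of the data. The second names of mitochondrial tRNAs were dropped by name, and for 2 of them the reads over the 111 libraries were unlike. mt-tRNA-Arg-TCG-1 had 468611 reads and its second name 25789, and mt-tRNA-Ser-GCT-1 had 140 and its second name 386. RPM scale the reads of a feature to the library's total over the kept features, given as mean ± SD.

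All 19 testis libraries of 4 diets, grouped by their titles, entered 1 fit in edgeR 4.0.16 (R 4.3.3) with the quasi-likelihood F test in its robust form, TMM factors and the filter filterByExpr. The contrast was high-fat control minus control, p-values were adjusted by Benjamini-Hochberg over all tested features, and a feature was called under 0.05. Standard errors came from the F statistic. Class shares, ratios and tissue shares were compared by two-sided exact permutation over libraries, for which the smallest p of 5 against 5 is 0.00794. Scaling alternatives set library sizes to total counts, other factors or the reads of 1 class, and DESeq2 1.42.0 was a further alternative. The main edgeR fit was also run on simulated data with known changes spread at random over features. The differences here run by class, so that run does not show how the fit handles them. Replicate pairs of the control differed by a chi-square per degree of freedom of 14.8 to 398 and those of the high-fat control by 4.05 to 18.7, and each library counts as 1 replicate. Intervals and limits for few reads cover counting error only.

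Named features are the called ones with the largest fold change (8 per direction for cytosolic tRNAs and piRNA precursors, 3 for other classes) and the 3 most read of each class. Features singled out for other reasons (tRNA-Glu-TTC-1, tRNA-SeC-TCA-1, the pi-Strbp transcripts) were chosen after their values were seen. The members, lists and rules were chosen with earlier results of these data known.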

Additional observations from a re-analysis of the deposited data

Results flagged for a closer look

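In 9 of 128 groups of 5 values 1 library stood far from the other 4, and chance gives about 1 in 20. High-fat control replicate 3 had 15.35% piRNA precursor reads, against 5.45% to 7.70% in the other libraries of its diet. The same library stood apart for the piRNA precursors 2-qE1-35981.2, with 5589 RPM beside 1294 to 2151 RPM, and 7-qD2-24830.3, with 4471 RPM beside 1438 to 2171 RPM. High-fat control replicate 1 had 5357 RPM of Snord83b, beside 1895 to 2762 RPM in the rest of its diet. tRNA-Val-CAC-1 had 51.2 RPM in high-fat control replicate 4 and tRNA-Ala-AGC-5 had 23.1 RPM in high-fat control replicate 1, each a single read, and the other libraries of that diet had 0. Control replicate 4 had 17.9 RPM of 7-qF3-246.1, beside 0 to 3.14 RPM in the other control libraries. Control replicate 3 had 33.9 RPM of 4-qD3-2082.3, beside 0 to 9.43 RPM, and 50.9 RPM of Snora17, beside 6.29 to 17.9 RPM.

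The difference between the diets in testis departed from the mean difference of the other 5 tissues for 12 of the 45 named features in the 6-tissue fit (edgeR with TMM factors, Benjamini-Hochberg adjusted over 406 features). Of all 406 features 52 departed, and 5 with total counts. Many named features were chosen for large differences in these same testis libraries, which favours a departure, so their count is no separate support. The departures, testis minus the others on the log2 scale, were −3.67 ± 0.96 for tRNA-Thr-AGT-1, −3.81 ± 1.09 for tRNA-Asn-GTT-1, −3.68 ± 0.89 for tRNA-Val-AAC-3, −1.74 ± 0.52 for tRNA-Asp-GTC-1 and −1.88 ± 0.60 for tRNA-Gln-CTG-2. Among mitochondrial tRNAs they were −2.84 ± 0.71 for mt-tRNA-Asp-GTC-1, −2.36 ± 0.54 for mt-tRNA-Lys-TTT-1, −2.73 ± 0.78 for mt-tRNA-Ile-GAT-1 and −1.84 ± 0.51 for mt-tRNA-His-GTG-1. They were −2.30 ± 0.72 for Gm26109, −2.16 ± 0.70 for Gm22193 and 1.89 ± 0.64 for CT010467.1. The edgeR adjusted p ran from 0.0019 for mt-tRNA-Lys-TTT-1 to 0.0363 for CT010467.1.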

How the results depend on the processing

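The ratio of piRNA precursors to cytosolic tRNA kept its direction under each alternative run, at 3.06 to 4.18 with 1 library left out, and its unadjusted exact p stayed at 0.00794 to 0.0159. Adjusted over 7 ratios, that p was under 0.05 in 2 of the 10 fits with 1 library left out. The difference in tRNA share ran from −36.85 to −25.70 points and that in piRNA share from 4.97 to 7.44 points with 1 library left out. They were −36.85 and 7.315 points without control replicate 3, and −16.32 and 16.32 points over tRNA and piRNA reads alone, all then past the threshold. Features called numbered 209 of 447, and 138 of 416 to 252 of 414 with 1 library left out. With libraries thinned to the lowest depth 90 of 167 were called. They numbered 241 of 447 with total counts, 204 of 437 scaled to mitochondrial tRNA and 150 of 474 scaled to cytosolic tRNA. Scaled to piRNA precursors 252 of 454 were called, with no filter 177 of 886 and with all entries 283 of 618. Cytosolic tRNAs called numbered 97 of 108, and 82 to 93 of the 99 to 108 tested with 1 library left out. Their calls were 63 of 108 with total counts, 36 of 101 scaled to mitochondrial tRNA, 20 of 102 scaled to cytosolic tRNA and 40 of 48 thinned. piRNA precursors called numbered 61 of 141, and 27 to 84 of the 128 to 137 tested with 1 library left out. Their calls were 116 of 141 with total counts, 111 of 140 scaled to mitochondrial tRNA and 96 of 160 scaled to cytosolic tRNA. Scaled to piRNA precursors 0 of 113 were called, with no filter 17 of 276, with all entries 102 of 194 and thinned 21 of 24. Isoacceptors called numbered 41 of 44, and 7 of 43 scaled to cytosolic tRNA. Departures of testis from the other tissues numbered 52 of 406, 5 with total counts and 25 with RLE factors. Thinning leaves fewer reads and fewer tested features by construction, and the cause of the other moves was not tested. Thinning, the halving of even counts, 1 transcript per piRNA locus and the tRNA scaling of isoacceptors were chosen after seeing the data.

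The replicate numbers came from the titles. Same-numbered libraries of the 2 diets had correlations of −0.107, 0.0563, 0.0051, 0.128 and 0.109 of their deviations. The best correlation was with the same number for replicates 2, 4 and 5 and with another number for replicates 1 and 3. Such weak values cannot tell whether the numbers pair the libraries, and the main fit did not pair them. A fit with the replicate number as a block held the 2 control diets only and called 162 of 302 features, 64 of 73 cytosolic tRNAs and 63 of 85 piRNA precursors. The same 2 diets without the block gave 164, 65 and 61.

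Over 55 named features and 26 settings, 1139 of 1317 values kept direction and call, 93 lost and 37 gained the call, and 48 changed direction. With total counts, scaled to mitochondrial tRNA and scaled to cytosolic tRNA, in that order, the log2 fold change became 0.47, 0.59 and 1.04 for tRNA-Glu-CTC-1, 0.61, 0.81 and 1.32 for mt-tRNA-Met-CAT-1, 0.61, 0.79 and 1.245 for Gm23971, 0.39, 0.59 and 1.04 for Gm23472, 0.63, 0.78 and 1.23 for Rnu1a1, 0.38, 0.58 and 1.03 for Gm47301, 0.79, 0.93 and 1.25 for Mir5121, and 0.47, 0.64 and 1.07 for Gm25018. Scaled to cytosolic tRNA it also became 0.59 for mt-tRNA-Val-TAC-1 and 0.20 for Gm22823. Scaled to piRNA precursors it became −0.55 for Snord80, −0.48 for Snord32a, −1.16 for Gm26135, −0.60 for Mir6236, −1.11 for Gm23935, −0.72 for Gm47295, −0.66 for Rn7s1 and −0.19 for mt-Rnr1. Thinned, it became 0.10 for tRNA-Glu-CTC-1, 0.059 for mt-tRNA-Met-CAT-1, 0.078 for Gm23971, 0.037 for Rnu1a1, 0.56 for Mir5121 and 0.041 for Gm25018. Gm26135 became −0.077 with TMMwsp and −0.10 with no filter, and Mir5121 became 0.072 with upper-quartile factors. With 1 library left out, Gm26135 ran from −0.21 to 0.52 and Mir5121 from −0.34 to 0.13.

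The depth of the high-fat control libraries limits values of features with few reads, where 1 read is 23.1 to 51.2 RPM.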

Other observations

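Entries named for single tRNA gene copies, with 1 more number in the name than the mature tRNAs, held 276, 212, 89.8, 101 and 186 reads per 100000 mature tRNA reads in high-fat control replicates 1 to 5, against 30.3, 26.3, 99.6, 79.6 and 51.9 in control replicates 1 to 5. The means were 173 ± 78.3 in the high-fat control and 57.6 ± 31.7 in the control (SD, n = 5 each, two-sided exact permutation p = 0.0159), a comparison chosen after the values had been seen. Control replicate 3 lay between the 2 lowest high-fat control values. The rates rested on few reads, with 44, 18, 9, 6 and 27 in high-fat control replicates 1 to 5. In control replicates 1 to 5 the entries held 139, 33, 40, 100 and 274 reads. Of 59 such features 2 passed the filter on low counts with TMM factors.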
